A study of Mus musculus with 18 samples.

Results

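Meis1, Meis2, Meis3, Pbx2, Pbx3 and Pbx4 encode homeodomain proteins that act as cofactors of the Hox proteins, and they are described here across 18 RNA-seq libraries of mouse embryonic stem (ES) cells and of neural cultures made from them. The genes were taken by symbol, which gave 6 of the 23420 symbols in the files, and all 6 were among the 17166 genes with enough counts to be tested. Members of the three-amino-acid-loop-extension (TALE) class of homeodomain proteins, Meis and Pbx bind DNA together with one another and with Hox proteins, and so sharpen which sites a Hox protein occupies. Meis proteins bind Pbx proteins and favour their entry into the nucleus, while Pbx proteins contact the Hox partner. In the embryo both families act in the hindbrain and spinal cord, where retinoic acid switches on Hox genes.

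All libraries came from wild type E14 cells, an established mouse ES cell line grown without feeder cells, and each of the 9 groups held 2 libraries. Among undifferentiated ES cells, 1 group was the control (day 0) and the other groups received GW3965, LG268 or both for 24 h, each at 1 µM. GW3965 activates the liver X receptors, and LG268 activates the retinoid X receptors, which pair with the liver X and the retinoic acid receptors. The differentiated groups passed through embryoid bodies, floating aggregates that were given 5 µM retinoic acid over 4 days, and were then plated. They were collected at days 8, 16 and 17 without added ligand, and at days 16 and 17 with GW3965 at 1 µM. The vehicle named for the treatments was dimethylsulfoxide. The labels gave no length of GW3965 exposure in the differentiated cultures. By their names, the deposited tables place it from day 8 in the day 16 group and at 24 h in the day 17 group, so stage and exposure cannot be told apart between those groups. The labels call every sample embryonic stem cells and do not say whether the 2 libraries of a group were separate cultures, so p-values measure only the spread between these libraries, which may be technical.

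Depth was 16.75 to 44.79 M gene counts a library (median 23.5 M). Multiply aligned reads were set apart in the 4 day 17 libraries (31.8 to 33.5% of their reads) and numbered 0 in the other 14, so steps into day 17 cross a difference in read handling. The 2 libraries of a group differed by a chi-square of 2.80 to 6.89 per gene in 7 groups, by 10.3 in the both-ligand group and by 40.4 in the day 16 group with GW3965. Abca1, a liver X receptor target, checked the ligand labels. It stood at 7.51 and 8.79 counts per M (CPM) in control ES cells, 327 and 345 with GW3965, 38.1 and 39.9 with LG268, and 531 and 576 with both. Pluripotency markers summed to 2633 to 2656 CPM in control ES cells and 98.2 to 104 CPM at day 8, and neuron markers to 487 to 493 and 4415 to 4430 CPM.

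Sequence upstream of the RefSeq start is shown for a pair of genes that were low in ES cells and high in neural cultures, Meis1 and Meis2, and for Pbx2, which was already high in ES cells. RefSeq held a promoter for 5 of the 6 genes on GRCm38.p6, and the 250 bases before each start were searched. The sequences run 5′ to 3′ on the gene's strand and leave out annotated exons, and capitals mark CCAAT or TATAAA. The Meis1 stretch is chr11:19018986-19019219 on the minus strand, that of Meis2 is chr2:116064722-116064801 on the minus strand, and that of Pbx2 is chr17:34592009-34592258 on the plus strand. Starts differ between annotations: the Meis2, Meis3 and Pbx2 windows lie inside the gene spans of the GENCODE annotation. The Meis2 window holds 158 bases of untranslated and 12 of coding exon, which are not printed. The Meis1, Meis3 and Pbx4 windows hold 16, 160 and 133 bases of untranslated exon.
Meis1: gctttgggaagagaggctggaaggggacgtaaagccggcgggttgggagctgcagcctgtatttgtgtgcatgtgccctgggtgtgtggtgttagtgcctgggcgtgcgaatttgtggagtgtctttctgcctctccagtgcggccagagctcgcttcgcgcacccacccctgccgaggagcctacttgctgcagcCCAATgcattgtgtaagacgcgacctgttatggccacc
Meis2: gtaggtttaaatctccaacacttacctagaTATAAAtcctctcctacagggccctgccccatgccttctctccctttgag
Pbx2: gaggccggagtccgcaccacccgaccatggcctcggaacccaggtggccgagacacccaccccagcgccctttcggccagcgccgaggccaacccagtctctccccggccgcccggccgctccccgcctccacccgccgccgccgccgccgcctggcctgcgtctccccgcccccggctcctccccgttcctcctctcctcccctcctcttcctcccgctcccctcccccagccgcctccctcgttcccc
The Pbx2 window had a GC content of 77.6% and 27 CpG sites, against 59.6% and 13 in the whole Meis1 window and 47.6% and 7 in that of Meis2, while the median over 32851 RefSeq windows was 52.4% and 6. Both strands were searched for 5 motifs. CCAAT began 54 bases before the Meis1 start, and on the opposite strand 210 bases before the Meis2 start and 197 and 30 before the Pbx4 start. The Meis2 match and the Pbx4 match at 30 lay in annotated exon. It occurred in 33.8% of all windows. TATAAA was found in the Meis2 window alone of the 5, 152 bases before the start, and in 12.4% of all windows. The retinoid receptor core site AGGTCA (14% of all windows), the Meis site TGACAG (15.9%) and the Pbx-Hox site TGATNNAT (7.68%) were in none of the 5 windows.

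The genes lie apart on the GRCm38 assembly. Meis1 (chr11:18879817-19018985) and Meis2 (chr2:115863064-116065839) are long genes on the minus strand, with 10532 and 12043 bp of exon. Meis3 (chr7:16175090-16186504, plus strand) has 3173 bp of exon. Pbx2 (chr17:34591266-34597400, plus strand), Pbx3 (chr2:34171457-34373142, minus strand) and Pbx4 (chr8:69832491-69872292, plus strand) have 3640, 6109 and 2217 bp. No stretch of 50 bases was shared between any of the 6, so reads of that length would not be split among them. Other annotated genes overlap 18.3% of the Meis1 exons (Gm37818 on the same strand and Gm16140 on the opposite) and 6.24% of the Pbx2 exons (Gpsm3), so reads there are uncertain.

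Levels are CPM scaled by TMM. Levels of different genes are compared only as CPM per kb of exon (RPKM), each as mean ± SD of 2 libraries (n = 2). The lengths are GENCODE exon lengths, while the annotation used for counting is not given. The order of genes per length rests on these lengths, and the SD does not cover an error in them. In control ES cells Pbx2 was the most abundant of the 6 per length, at 23.4 ± 0.515 RPKM. Pbx3 (5.87 ± 0.504 RPKM) and Pbx4 (5.52 ± 0.607 RPKM) followed with overlapping libraries, then Meis3 at 2.69 ± 0.0814 RPKM. Meis2 (0.229 ± 0.0221 RPKM) and Meis1 (0.168 ± 0.0544 RPKM) were lowest. Of these 6 genes, undifferentiated cells therefore held mainly Pbx2 RNA, and Meis3 made up 88.0 and 86.2% of the RPKM of the 3 Meis genes in the 2 libraries.

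By day 8 the order had changed. Pbx2 stood at 36.7 ± 0.928 RPKM, Pbx3 at 32.3 ± 0.394, Meis1 at 30.4 ± 0.359, Meis2 at 23.8 ± 0.707, Meis3 at 18.3 ± 0.331 and Pbx4 at 4.23 ± 0.00458, with no overlap between neighbours. The summed RPKM of the Meis genes went from 3.08 ± 0.0495 to 72.4 ± 0.679, while that of the 3 Pbx genes went from 34.75 ± 0.615 to 73.2 ± 1.33. Meis RNA, far scarcer than Pbx RNA in ES cells, thus reached almost the same summed level at day 8. The Meis3 share fell to 25.2 ± 0.226% at day 8, 21.0 ± 0.389% at day 16 and 13.7 ± 0.417% at day 17, with no test made on shares. Pbx2 made up 67.2 ± 0.283% of the Pbx RPKM in ES cells, 50.2 ± 0.361% at day 8, 48.9 ± 1.27% at day 16 and 43.8 ± 1.47% at day 17.

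**Figure D1:**
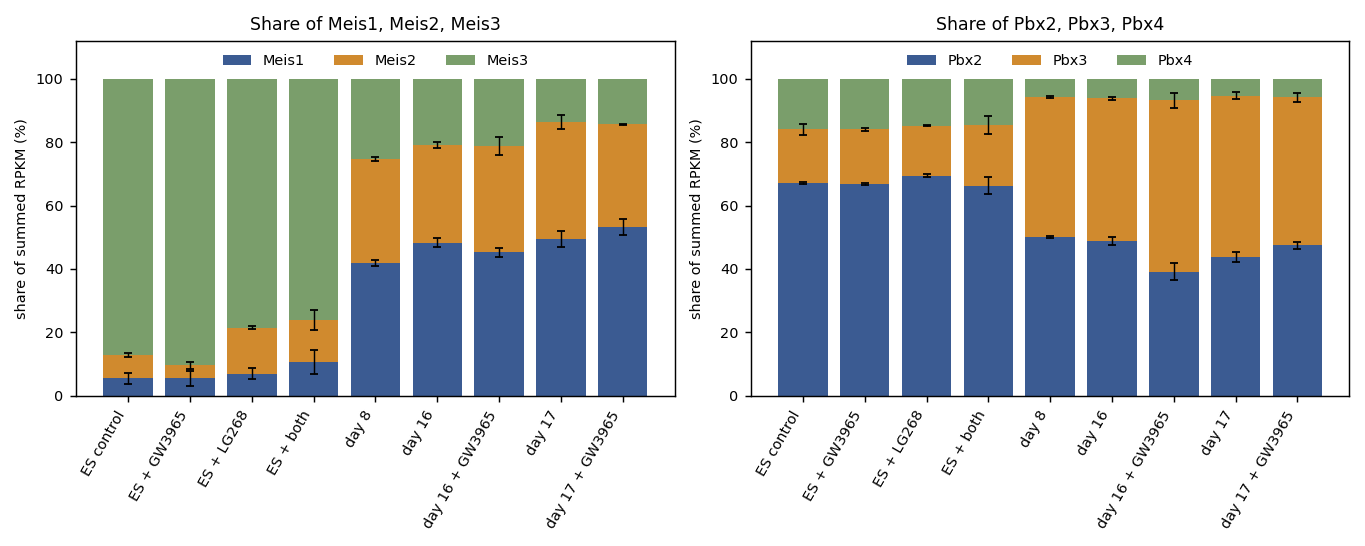
Share of each gene in the summed RPKM (percent) of the 3 Meis genes (left) and the 3 Pbx genes (right) in the 9 groups; bars are means of 2 libraries and whiskers the SD of the share whose upper edge they sit on. Meis3 holds 76.0 to 90.4% of the Meis sum in the 4 ES groups and 13.7 to 25.2% in the 5 differentiated groups, and Pbx2 passes from 66.3 to 69.5% down to 39.2 to 50.2%.

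The first question was how the cofactors changed from control ES cells to day 8. Of the 6 genes 5 rose and 1 fell, in a comparison in which 78.7% of all tested genes were called at an adjusted p under 0.05 (edgeR quasi-likelihood test, Benjamini-Hochberg), 39.7% higher and 39.1% lower. Being called therefore set the 6 genes little apart, and the size of the change is what is described. Their median log2 fold change was 2.61, against 0 over all tested genes.

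Meis1, also known from blood stem cells and leukaemia, stood at 1.36 and 2.17 CPM in ES cells (31 and 55 counts) and at 323 and 318 CPM at day 8. It rose 179-fold (log2 7.48 ± 0.161 SE, adjusted p = 5.79e-19). Meis2, which acts in brain and neural crest development, went from 2.95 and 2.57 CPM (67 and 65 counts) to 280.2 and 292 CPM. The rise was 104-fold (log2 6.70 ± 0.113, adjusted p = 2.98e-20), the 11th smallest p of all 17166 genes. Both genes thus passed from at most 67 reads in a control ES library to at least 7242 in a day 8 library.

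Meis3, a gene studied in hindbrain patterning, rose 6.81-fold from 8.70 and 8.34 CPM to 57.3 and 58.7 CPM (log2 2.77 ± 0.117, adjusted p = 1.58e-14). Pbx3, whose loss in mice disturbs the hindbrain control of breathing, rose 5.50-fold from 38.1 and 33.7 CPM to 195 and 199 CPM (log2 2.46 ± 0.0726, adjusted p = 5.9e-17). Pbx2, a broadly expressed Pbx gene, rose 1.57-fold from 83.7 and 86.3 CPM to 131 and 136 CPM (log2 0.65 ± 0.0716, adjusted p = 5.67e-08). Pbx4, best known from the testis, was the exception. It fell 1.31-fold from 11.3 and 13.2 CPM to 9.36 and 9.38 CPM (log2 -0.39 ± 0.136, adjusted p = 0.0135). That call was lost without ES control replicate 2 (adjusted p = 0.154) or day 8 replicate 2 (adjusted p = 0.054).

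In these bulk libraries fewer cells of a type and less RNA per cell cannot be told apart. Markers of other cell types moved over the same step. All 15 neuron markers were higher at day 8, 9 of 10 neural progenitor markers were higher and 1 lower (summed 897 to 902 CPM in ES cells and 2379 to 2398 at day 8), and 11 of 12 pluripotency markers were lower. Of 14 tested mesoderm, mesenchyme and muscle markers 9 were higher and 4 lower (384 to 402 and 1723 to 2059 CPM), with Myod1 at 0 in both day 8 libraries. Their part in the cofactor changes was not tested.

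**Figure D2:**
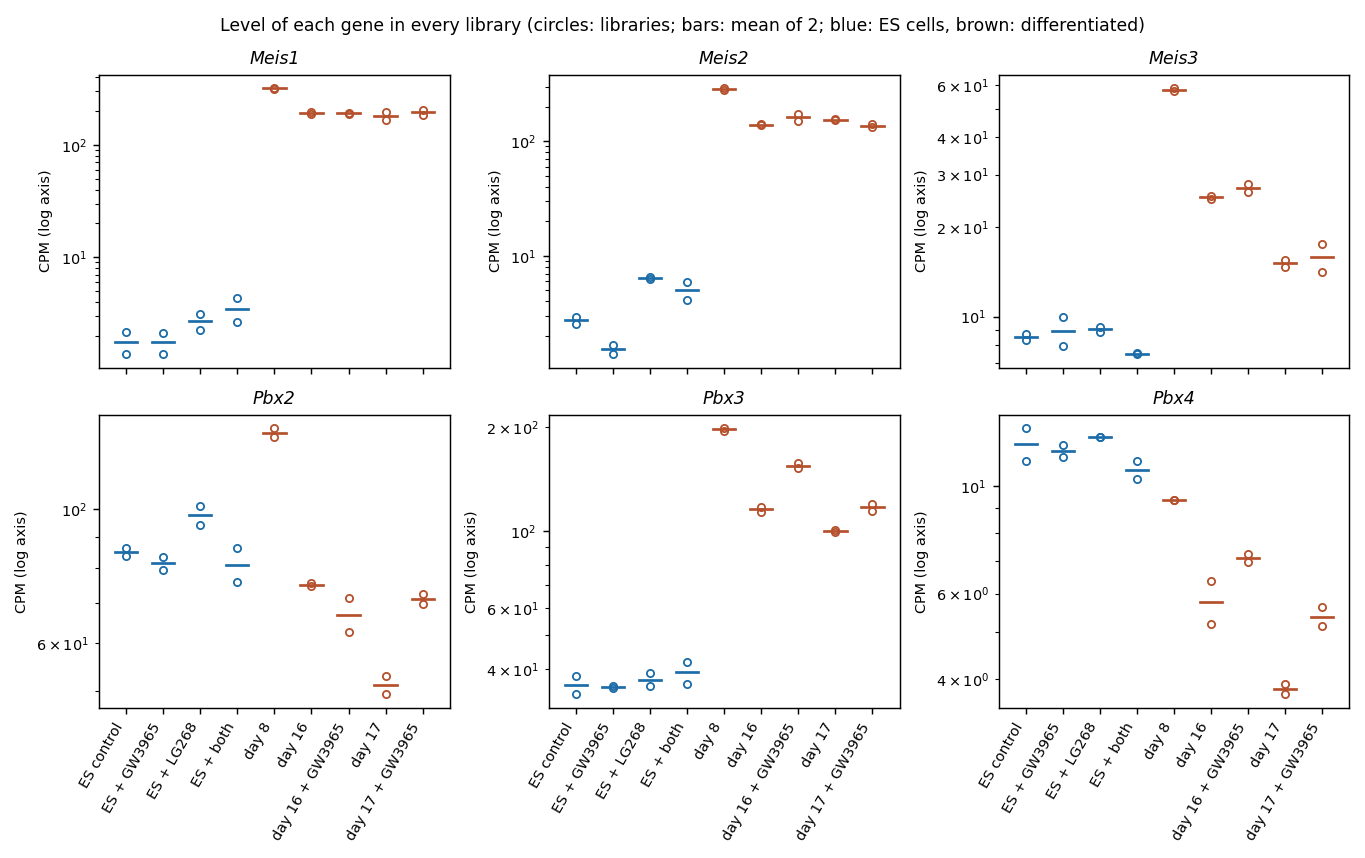
CPM (log axis, own range for each gene) of the 6 genes in every library of the 9 groups; circles are libraries and bars means of 2. Meis1 and Meis2 lie between 1.36 and 6.50 CPM in the 8 ES libraries and between 133 and 323 CPM in the 10 differentiated ones, while Pbx4 is higher in each ES library (10.3 to 13.2 CPM) than in each differentiated one (3.71 to 9.38 CPM).

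From day 8 to day 16, as the cultures aged without added ligand, all 6 genes fell, where 32.2% of tested genes were called lower and 61.6% in either direction. The median log2 fold change of the 6 was -0.80, against -0.04 over all genes. Meis3 fell 2.31-fold, from 57.3 and 58.7 to 25.4 and 24.9 CPM (log2 -1.21 ± 0.104, adjusted p = 6.04e-09). Meis2 fell 2.05-fold, from 280.2 and 292 to 143 and 137 CPM (log2 -1.03 ± 0.0735, adjusted p = 3.69e-10). These were the steepest of the 6 falls. Meis1 fell 1.67-fold, from 323 and 318 to 187 and 197 CPM (log2 -0.74 ± 0.0971, adjusted p = 1.84e-06).

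The Pbx genes fell by similar factors. Pbx2 went from 131 and 136 to 75.5 and 74.5 CPM, 1.78-fold lower (log2 -0.83 ± 0.0716, adjusted p = 5.54e-09). Pbx3 went from 195 and 199 to 113 and 118 CPM, 1.71-fold lower (log2 -0.77 ± 0.0662, adjusted p = 5.74e-09). Pbx4, the scarcest of the 6 per length in the differentiated groups, went from 9.36 and 9.38 to 5.19 and 6.36 CPM, 1.61-fold lower (log2 -0.69 ± 0.141, adjusted p = 0.000295). No call in this step was lost when any of the 4 libraries compared was left out.

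Both day 16 libraries of Pbx2 thereby lay below both control ES libraries, whereas those of Meis1, Meis2, Meis3 and Pbx3 stayed above, with no test made of day 16 against ES cells. At day 16 Pbx2 (20.6 ± 0.198 RPKM), Pbx3 (18.9 ± 0.514 RPKM) and Meis1 (18.2 ± 0.618 RPKM) were close, and the libraries of Pbx3 and Meis1 overlapped. Over the same step 10 of 15 neuron markers were lower and 2 higher (4415 to 4430 CPM at day 8 and 2283 to 2320 at day 16), and 13 of 14 mesoderm, mesenchyme and muscle markers were higher (1723 to 2059 and 10680 to 12110 CPM, none at 0 at day 16). Glia markers were higher in 9 of 10 cases (326 to 337 and 1267 to 1294 CPM). Neural progenitor markers were lower in 7 of 10 cases and higher in 2 (2379 to 2398 and 2110 to 2217 CPM). The part of these markers in the falls was not tested.

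Between day 16 and day 17, 4 of the 6 genes fell, with 29.5% of tested genes called lower and 56.2% in either direction. This step shares the day 16 libraries with the one before. Meis3 went from 25.4 and 24.9 to 14.7 and 15.5 CPM (log2 -0.74 ± 0.113, adjusted p = 1.3e-05), and Pbx2 from 75.5 and 74.5 to 53.1 and 49.5 CPM (log2 -0.55 ± 0.0754, adjusted p = 3.41e-06). Those were the firmest of the 4 calls. Pbx4 went from 5.19 and 6.36 to 3.71 and 3.91 CPM (log2 -0.61 ± 0.161, adjusted p = 0.00285), and Pbx3 from 113 and 118 to 99.5 and 100.5 CPM (log2 -0.21 ± 0.0678, adjusted p = 0.0127). Without day 16 replicate 2 both lost their calls (adjusted p = 0.069 and 0.107), and Pbx3 also without day 17 replicate 1 (adjusted p = 0.0762).

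Meis1 and Meis2 did not pass the test in this step. Meis1 stood at 187 and 197 CPM at day 16 and 166 and 197 CPM at day 17 (log2 -0.09, 95% interval -0.29 to 0.12), and Meis2 at 143 and 137 and at 153 and 156 CPM (log2 0.14, -0.01 to 0.30). At day 17 Meis1 led the 6 genes per length with 17.2 ± 2.06 RPKM, its libraries on either side of those of Pbx3 (16.4 ± 0.12 RPKM), and Pbx2 had dropped to 14.1 ± 0.7 RPKM. Meis2 followed at 12.8 ± 0.157, Meis3 at 4.76 ± 0.185 and Pbx4 at 1.72 ± 0.0618 RPKM.

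Cell type markers moved over this step as well. Glia markers were higher in 3 of 10 cases and lower in 4 (summed 1267 to 1294 CPM at day 16 and 3043 to 3349 CPM at day 17). Gfap alone went from 575 ± 19.4 to 2354 ± 249 CPM. Of 10 neural progenitor markers 5 were lower and 1 higher (2110 to 2217 and 1204 to 1316 CPM), and of 15 neuron markers 6 were lower and 1 higher (2283 to 2320 and 1800 to 1818 CPM). Of 14 mesoderm, mesenchyme and muscle markers 4 were higher and 8 lower (10680 to 12110 and 8635 to 9536 CPM, Mixl1 at 0 in both day 17 libraries), and of 12 pluripotency markers 6 were higher and 2 lower (114 to 123 and 190.2 to 201 CPM). The part of these markers, and of the read handling at day 17, in the falls was not tested.

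**Figure D3:**
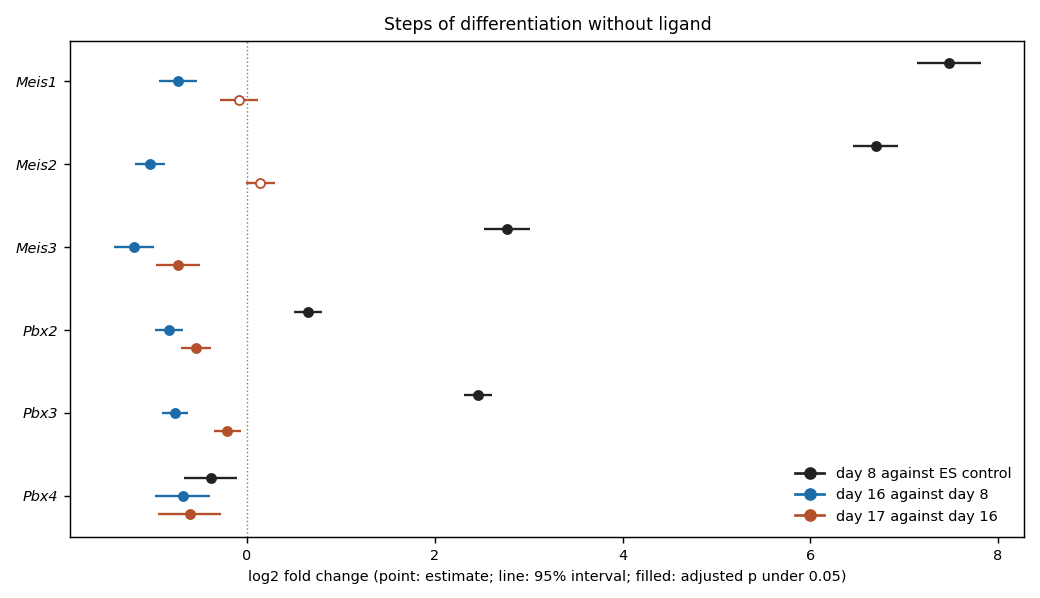
Log2 fold change of each gene in the 3 steps of differentiation without ligand; points are estimates, lines 95% intervals, and filled points have an adjusted p under 0.05. The day 8 step moves Meis1 by 7.48 and Meis2 by 6.70, all 6 genes lie below 0 from day 8 to day 16, and Meis1 and Meis2 alone are unfilled from day 16 to day 17.

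LG268 in ES cells asks whether activating the retinoid X receptors for 24 h moves the cofactors before any differentiation. Meis2 rose, the 1 call among the 6 genes, where 0.851% of all tested genes were called in either direction and 0.518% higher. Its levels were 2.95 and 2.57 CPM in the control and 6.50 and 6.25 CPM with LG268 (177 and 131 counts), so the groups did not overlap. The rise was 2.32-fold (log2 1.22 ± 0.157, adjusted p = 0.000218), and the call was kept in all 12 alternatives. Even so the LG268 level was far below the 280.2 and 292 CPM of day 8. With LG268 3 of 14 mesoderm, mesenchyme and muscle markers were lower and 0 higher (summed 384 to 402 CPM without and 296 to 313 with LG268, none at 0): Eomes, Mixl1 and T. The progenitor marker Pax6 and the neuron marker Gap43 were higher, 1 of 10 and 1 of 15 (summed 897 to 902 and 823 to 834 CPM for the first list, 487 to 493 and 499 to 515 CPM for the second), and 0 of 12 pluripotency markers were called by edgeR. Their part in the Meis2 rise was not tested.

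Meis1 was higher in both LG268 libraries (3.12 and 2.24 CPM) than in both control libraries (1.36 and 2.17 CPM) but did not pass the test (log2 0.61, 95% interval 0.03 to 1.19, adjusted p = 0.485). Such levels rest on 31 to 85 counts per library, and the Poisson 95% interval of the lowest control library alone ran from 0.926 to 1.93 CPM, for counting error only. Pbx2 stood at 101 and 94.2 CPM against 83.7 and 86.3 CPM (log2 0.20, 0.05 to 0.35, adjusted p = 0.289). Meis3, Pbx3 and Pbx4 had log2 differences of 0.09, 0.06 and 0.05, and their 95% intervals stayed between -0.24 and 0.36.

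GW3965 in ES cells, the test of the liver X receptors, gave no call among the 6 genes with edgeR, where 0.32% of tested genes were called. At an unadjusted edgeR p under 0.05 there was 1 gene, Meis2. It stood at 1.66 and 1.38 CPM (68 and 27 counts) against 2.95 and 2.57 CPM, without overlap, a log2 difference of -0.81 ± 0.2 with an adjusted p of 0.136. With no filter on low counts the adjusted p was 0.00877 and with the DESeq2 Wald test 0.0184, while limma-voom called none of the 6. The other 5 genes differed by -0.06 to 0.07 on the log2 scale.

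Both ligands together were also set against the control, so these 3 comparisons share the same control libraries. Of the 6 genes 2 rose, where 11.3% of tested genes were called in either direction and 4.83% higher. Pluripotency markers were lower in 3 of 12 cases and higher in 1 (summed 2633 to 2656 CPM without and 2690 to 2780 with both ligands). Mesoderm, mesenchyme and muscle markers were lower in 3 of 14 cases and higher in 0. Neural progenitor markers were lower in 2 of 10 and higher in 1, and neuron markers higher in 3 of 15 and lower in 2. The part of the markers in the rises was not tested. Meis2 stood at 4.15 and 5.88 CPM, 1.83-fold above the control (log2 0.87 ± 0.173, adjusted p = 0.00292). Meis1 stood at 4.32 and 2.62 CPM, 1.93-fold above (log2 0.95 ± 0.278, adjusted p = 0.0327). Neither call was firm: both were lost under limma-voom (adjusted p = 0.0625 for Meis2 and 0.18 for Meis1) and when these groups were fitted alone (0.102 and 0.165). The Meis2 call was also lost without both-ligand replicate 2 (0.055), and that of Meis1 without both-ligand replicate 1 (0.452) or ES control replicate 1 (0.252).

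**Figure D4:**
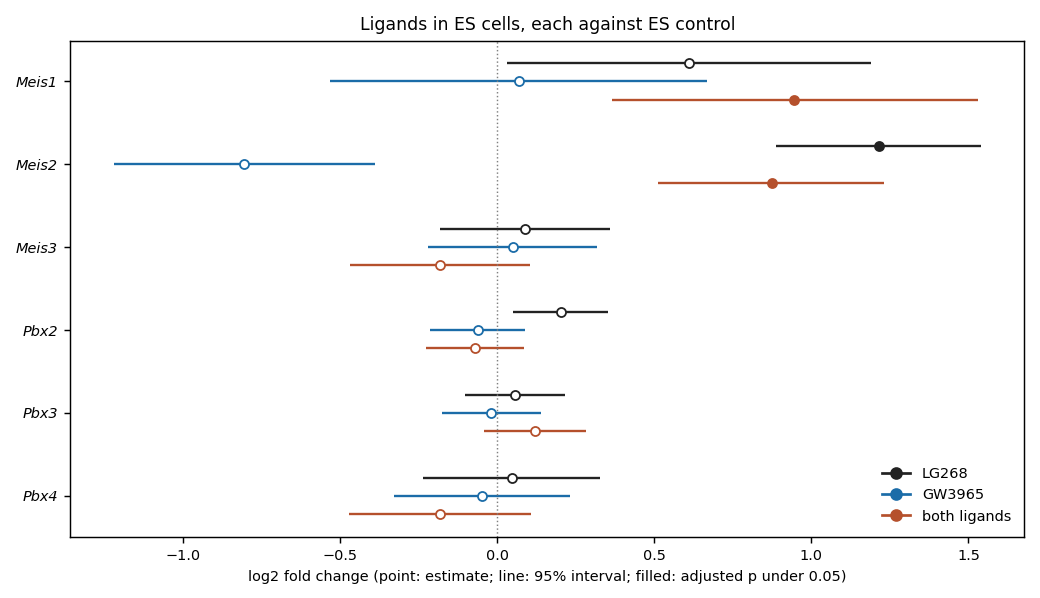
Log2 fold change of each gene under LG268, GW3965 and both ligands, each against the same control ES libraries; points are estimates, lines 95% intervals, and filled points have an adjusted p under 0.05. Meis2 lies at 1.22 with LG268, -0.81 with GW3965 and 0.87 with both, and no Meis3, Pbx2, Pbx3 or Pbx4 point is filled.

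Set directly against each other, the ligands differed at Meis2. With LG268 it was 4.06-fold higher than with GW3965 (log2 2.02 ± 0.168, adjusted p = 5.43e-07), the 1 member called where 0.6% of tested genes were called and 0.285% higher. Pbx2 was at 101 and 94.2 CPM with LG268 and 83.3 and 79.4 with GW3965 (log2 0.26 ± 0.0723, adjusted p = 0.134), and passed with no filter (0.0472), with DESeq2 (0.0471) and in a fit of these groups alone (7.12e-05).

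Adding LG268 to GW3965, that is both ligands against GW3965, raised 2 of the 6 genes, where 10.7% of tested genes were called in either direction and 3.68% higher. Pluripotency markers were lower in 6 of 12 cases and higher in 0, and mesoderm, mesenchyme and muscle markers lower in 3 of 14 and higher in 0. Their part in the rises was not tested. Meis2 rose 3.20-fold (log2 1.68 ± 0.185, adjusted p = 2.34e-05). Meis1, at 4.32 and 2.62 CPM against 2.13 and 1.38, rose 1.84-fold (adjusted p = 0.0375), a call lost under limma-voom (0.183), in a fit of these groups alone (0.153), and without GW3965 replicate 1 (0.0708), GW3965 replicate 2 (0.166) or both-ligand replicate 1 (0.54). Thus Meis2 but not Meis1 held in every alternative.

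Adding GW3965 to LG268 lowered 1 of the 6 genes, where 4.21% of tested genes were called in either direction and 2.57% lower. Pbx2 fell from 101 and 94.2 to 75.7 and 86.2 CPM (log2 -0.27 ± 0.0735, adjusted p = 0.0407). The call was lost with DESeq2 size factors (0.055), with the replicate number as a block (0.0505), in a fit of these groups alone (0.221), and without LG268 replicate 1 (0.303), LG268 replicate 2 (0.113) or both-ligand replicate 1 (0.463). Meis2 was at 6.50 and 6.25 CPM with LG268 and 4.15 and 5.88 with both (log2 -0.34, 95% interval -0.65 to -0.03, adjusted p = 0.202). Without both-ligand replicate 2 it passed the test (log2 -0.62, adjusted p = 0.026).

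Whether the response to both ligands departed from the sum of the single responses was tested as an interaction, for which 0.134% of genes were called and none of the 6 with edgeR. None of the 6 had an unadjusted p under 0.05, and limma-voom and the DESeq2 Wald test called none either. For Meis2 the interaction was 0.46 ± 0.249 on the log2 scale (95% interval -0.06 to 0.99, adjusted p = 0.423).

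GW3965 in the day 16 cultures raised 2 of the 6 genes, where 31.7% of tested genes were called in either direction and 13% higher. Pbx3 rose 1.34-fold, from 113 and 118 to 152 and 157 CPM (log2 0.42 ± 0.0661, adjusted p = 6.99e-05), and every alternative kept the call. With 25.3 ± 0.629 RPKM it became the most abundant of the 6 per length, above Pbx2 at 18.4 ± 1.66 RPKM. Meis2 rose 1.16-fold, from 143 and 137 to 151 and 174 CPM (log2 0.22 ± 0.0733, adjusted p = 0.0294). The Meis2 call was lost without day 16 replicate 1 (0.0647), day 16 replicate 2 (0.173) or replicate 2 of the GW3965 group (0.352).

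Pbx2 pointed the other way at day 16 without passing the test, with 71.2 and 62.6 CPM under GW3965 against 75.5 and 74.5 (log2 -0.16, 95% interval -0.32 to -0.01, adjusted p = 0.0919), and passed without replicate 1 of the GW3965 group (0.0251). Meis1 was level, at 194 and 190.3 against 187 and 197 CPM (log2 0.00, -0.20 to 0.20). Meis3 (27.9 and 26.3 CPM) and Pbx4 (6.99 and 7.26 CPM) were above both control libraries, with adjusted p-values of 0.475 and 0.129.

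Cell type markers moved with GW3965 at day 16. Of 15 neuron markers 13 were higher and 0 lower (summed 2283 to 2320 CPM without and 3409 to 3615 with GW3965), and 12 of 14 mesoderm, mesenchyme and muscle markers were lower and 0 higher (10680 to 12110 and 5020 to 6325 CPM). Of 10 neural progenitor markers 7 were lower (2110 to 2217 and 1593 to 1687 CPM). Pluripotency markers were lower in 10 of 12 cases and higher in 1 (114 to 123 and 66.1 to 72.8 CPM), and glia markers lower in 5 of 10 (1267 to 1294 and 689 to 877 CPM). No marker of these 5 lists was at 0 in both libraries of either group. Their part in the Pbx3 and Meis2 rises was not tested.

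GW3965 in the day 17 cultures raised 3 of the 6 genes, all of them Pbx genes, where 35.2% of tested genes were called in either direction and 17.2% higher. Pbx2 rose 1.38-fold, from 53.1 and 49.5 to 72.4 and 69.7 CPM (log2 0.47 ± 0.0763, adjusted p = 8.46e-05), and every alternative kept the call. Pbx4 rose 1.41-fold, from 3.71 and 3.91 to 5.63 and 5.13 CPM (log2 0.50 ± 0.166, adjusted p = 0.0246). Pbx3 rose 1.17-fold, from 99.5 and 100.5 to 115 and 119.7 CPM (log2 0.23 ± 0.0683, adjusted p = 0.0132). In each of the 3 genes both treated libraries lay above both untreated ones, and the summed Pbx RPKM went from 32.2 ± 0.516 to 41.1 ± 0.106.

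The Pbx3 and Pbx4 calls rested on few libraries. Pbx3 lost its call without day 17 replicate 1 (0.071), day 17 replicate 2 (0.0513) or replicate 2 of the GW3965 group (0.101). Pbx4, with 67 to 126 counts per library, lost it without day 17 replicate 1 (0.129), day 17 replicate 2 (0.0657) or replicate 1 of the GW3965 group (0.128), with no filter (0.0501), with limma-voom (0.0695) and when these groups were fitted alone (0.0921). The Meis genes were not called. Meis1 stood at 207 and 184 against 166 and 197 CPM, Meis2 at 140.4 and 133 against 153 and 156 CPM (log2 -0.17, adjusted p = 0.0787, and 0.0428 with limma-voom), and Meis3 at 14.1 and 17.5 against 14.7 and 15.5 CPM.

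At day 17 too, markers moved with the ligand. Of 10 neural progenitor markers 6 were higher and 0 lower (summed 1204 to 1316 CPM without and 1821 to 1985 with GW3965), and of 15 neuron markers 7 were higher and 3 lower (1800 to 1818 and 2008 to 2236 CPM). Summed mesoderm, mesenchyme and muscle markers overlapped (8635 to 9536 and 8465 to 9400 CPM, with 4 of 14 higher and 1 lower). Glia markers were higher in 4 of 10 cases and lower in 3 (3043 to 3349 and 2218 to 2651 CPM). In the sum without GW3965, Gfap alone stood at 2354 ± 249 CPM. Mixl1 was at 0 in both day 17 libraries without ligand. The part of the markers in the Pbx rises was not tested.

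The GW3965 responses at the 3 stages were then compared with each other, each stage having its own controls, and the 3 differences share libraries. The day 16 response minus the ES response was positive for 2 of the 6 genes, where 14.8% of tested genes were called in either direction and 4.86% positive. These were Meis2 (log2 difference 1.02 ± 0.213, adjusted p = 0.00285) and Pbx3 (0.44 ± 0.1, adjusted p = 0.00572). The Pbx3 call was lost without ES control replicate 1 (0.0542). Meis2 stood lower with GW3965 in ES cells and higher at day 16, although the ES difference itself did not pass.

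The day 17 response minus the ES response was positive for Pbx2 (0.53 ± 0.105, adjusted p = 0.00137) and for Meis2 (0.63 ± 0.214, adjusted p = 0.0446), 2 of the 6, where 18.2% of tested genes were called and 8.59% positive. The Meis2 call was lost with the replicate block (0.0518), with limma-voom (0.229) and when any 1 of the 8 libraries compared was left out (adjusted p = 0.0536 to 0.193). The day 17 response minus the day 16 response was called for 2 of the 6 genes, in opposite directions, where 37% of tested genes were called, 20% positive and 17% negative. It was positive for Pbx2 (0.63 ± 0.105, adjusted p = 9.3e-05) and negative for Meis2 (-0.39 ± 0.105, adjusted p = 0.0063), and every alternative kept both calls. Pbx2 thus lay lower with GW3965 at day 16 and higher at day 17, and Meis2 the reverse, in all libraries compared, although Pbx2 at day 16 and Meis2 at day 17 did not pass on their own.

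**Figure D5:**
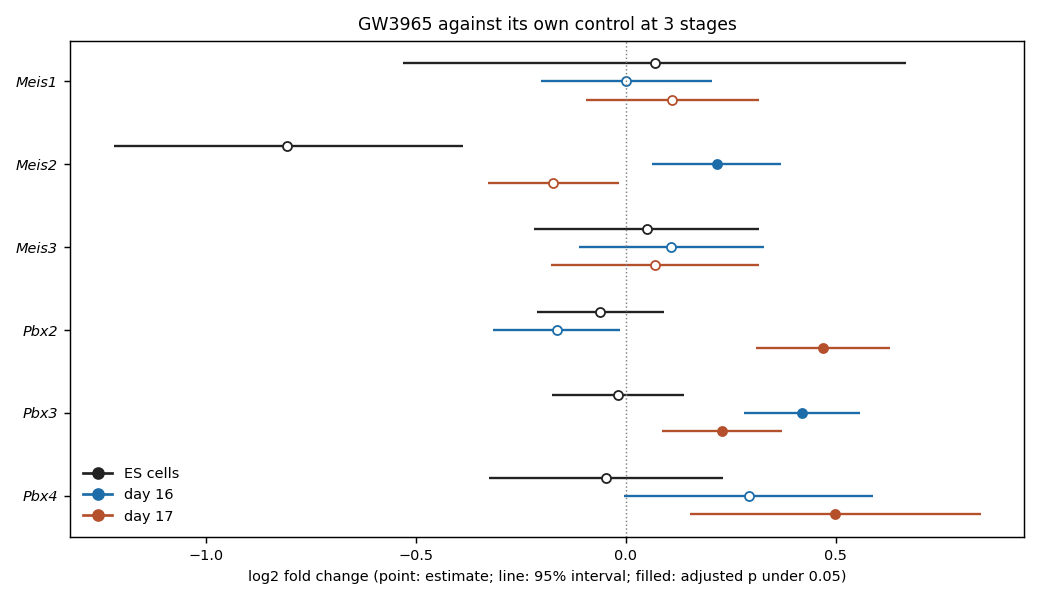
Log2 fold change of each gene under GW3965 against its own control in ES cells, at day 16 and at day 17; points are estimates, lines 95% intervals, and filled points have an adjusted p under 0.05. Pbx2 lies at -0.06, -0.16 and 0.47 and Meis2 at -0.81, 0.22 and -0.17 in the 3 stages, while the Meis1 and Meis3 intervals all cross 0.

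Hox genes and a list of TALE relatives were also counted, as lists described by counts and medians. Of 35 tested Hox genes 30 were higher and 1 lower at day 8 than in ES cells (median log2 8.14, against 0 over all genes). Their summed level went from 9.17 to 11.4 CPM in ES cells to 1777 to 1778 CPM at day 8. Among them Hoxb9, which patterns the trunk, went from 0.958 ± 0.0132 to 299 ± 3.92 CPM (log2 8.28 ± 0.173, adjusted p = 3.96e-19). From day 8 to day 16, 23 Hox genes were lower and 0 higher (median log2 -1.13, against -0.04), with Hoxb9 6.03-fold lower at 49.5 ± 5.34 CPM. From day 16 to day 17, 9 were higher and 2 lower, Hoxb9 rising 3.12-fold to 155 ± 0.727 CPM. That is near the share over all genes, of which 4593 of 17166 were higher in this step, and 24 of the 35 Hox genes were not called.

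Of the 35 tested Hox genes 8 were higher and 1 lower with GW3965 at day 16, and 26 were not called. Over all tested genes 31.7% were called there, 13% higher. At day 17, 5 were higher, 3 lower and 27 not called, where 35.2% of all tested genes were called and 17.2% higher. Hoxb9 was 3.02-fold lower with GW3965 at day 17 (51.4 ± 5.85 against 155 ± 0.727 CPM, adjusted p = 1.03e-09).

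With LG268 in ES cells 0.518% of all tested genes were called higher. Of the 16 retinoid response genes there, 3 were higher and 0 lower (median log2 0.48, against 0.00 over all genes). Among them were Rarb, the retinoic acid receptor beta gene (3.27-fold, adjusted p = 0.00202), and Crabp2, a retinoic acid carrier (1.69-fold, adjusted p = 0.0225). At day 16 GW3965 lowered 11 of the 16 retinoid response genes and raised 1, where 31.7% of all tested genes were called. Their median log2 was -0.75, against -0.03 over all genes, and Crabp2 was 4.04-fold lower (adjusted p = 2.01e-08). At day 17, 1 was higher and 2 lower, where 35.2% of all tested genes were called. With GW3965 at day 16 the log2 differences were 0.0009 for Meis1, 0.22 for Meis2 and 0.11 for Meis3. They were -0.16 for Pbx2, 0.42 for Pbx3 and 0.29 for Pbx4, and only Meis2 and Pbx3 passed the test. Whether the cofactors moved with or apart from the retinoid response genes was not tested.

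The list of TALE relatives held other TALE homeobox genes and Pbxip1, which is no homeobox gene but encodes a Pbx-binding protein. Among its 11 tested genes, Pknox2, a close kin of the Meis genes, was the 1 called with LG268 in ES cells. It rose 1.77-fold from 4.30 ± 0.236 to 7.60 ± 0.36 CPM (adjusted p = 0.00402), and with both ligands 2.41-fold to 10.4 ± 1.46 CPM (adjusted p = 7.94e-06). From ES cells to day 8, 7 relatives were higher and 3 lower, where 78.7% of all tested genes were called. Pknox2 rose 10.3-fold to 44.1 ± 2.9 CPM (adjusted p = 1.07e-15), and Tgif1, a repressor of the same class, fell 5.35-fold from 246 ± 5.84 to 45.9 ± 0.408 CPM (adjusted p = 4.81e-16). From day 8 to day 16, 8 were lower and 2 higher, where 61.6% of all tested genes were called and 32.2% lower. The 2 higher ones were Pbxip1 (2.30-fold to 124 ± 7.27 CPM, adjusted p = 1.06e-11), and Mkx (2.65-fold to 12.9 ± 1.6 CPM, adjusted p = 7.93e-08), a tendon factor.

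Between days 16 and 17, 4 genes of the list were higher and 0 lower, and 7 were not called. Over all tested genes 56.2% were called in this step. Pbxip1 rose 1.33-fold to 165 ± 2.1 CPM (adjusted p = 1.63e-05). Under GW3965 at day 16, 4 were lower and 0 higher, where 31.7% of all tested genes were called. Pbxip1 was 1.34-fold lower at 92.5 ± 3.54 CPM (adjusted p = 4.88e-05). Pbx3 and the gene of the Pbx-binding protein therefore moved in opposite directions there. At day 17, 3 were higher and 2 lower with GW3965, where 35.2% of all tested genes were called. Among the lower was Pknox2, 1.31-fold lower at 45.5 ± 3.15 CPM (adjusted p = 0.00282).

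Over the 9 group means of log2 CPM, the members fell along different lines, given as Pearson correlations without a test, since the 9 points fall into an ES and a differentiated set. Meis1 and Meis2 had r = 0.991, and Pbx3 had r = 0.975 with Meis1 and 0.969 with Meis2. Meis3 had r = 0.931 with Pbx3. Pbx4 had r = -0.799 with Meis1 and 0.69 with Pbx2, and Pbx2 had r = -0.195 with Meis1 and -0.0321 with Pbx3.

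The tested genes nearest to each cofactor by the same measure were Hoxa5 (r = 0.9993), Maged1 and Foxp2 for Meis1, where 238 genes had r over 0.99. For Meis2 they were Gfra1 (0.9963), Fam171b and Slco3a1, with 25 such genes, and for Meis3 Dock4 (0.9929), Gpc2 and Arhgef10l, with 4. Tmem44 (0.9986), Ip6k2 and Cep170 were nearest to Pbx3, with 66 such genes. Pbx2 had Hmgb1 (0.9766), Nmral1 and Atxn7l2, and Pbx4 had Fbxl6 (0.9887), Zfp512 and Upf3b, and neither had a gene over 0.99.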

How the data were processed

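RNA of 18 libraries was measured as reads per gene symbol. The deposited values are whole-number counts, and per the submitters' processing notes mm10, TopHat2 2.0.7, Cufflinks 2.0.2, HTSeq 0.6.0 and Cuffdiff 2.0.2 were used. Their order, the strand setting and the annotation are not given in the sources used here. HTSeq summary lines were left out (42.1 to 65.9% of reads had no gene). With R 4.3.3 and edgeR 4.0.16, genes passing filterByExpr (17166) were scaled by TMM and fitted in 1 quasi-likelihood model of 9 groups with 15 comparisons, two-sided, Benjamini-Hochberg adjusted over all tested genes, and called at an adjusted p under 0.05 without a minimum fold. Exon lengths and positions came from GENCODE for GRCm38 and promoters from RefSeq. The named genes were the 6 members, the 3 genes most like each by correlation, and from each list up to 3 called genes of smallest p at 1 CPM or more, of which the text gives some and 1 is not reported here. Lists on hindbrain and spinal cord factors (11 of 14 higher, 1 lower at day 8), forebrain and midbrain factors (14 of 17 and 2), endoderm and blood markers were also counted. Members and lists were chosen with earlier results of these data known. Alternatives were DESeq2 1.42.0 size factors and Wald test, limma-voom (limma 3.58.1), no filter, a filter of 1 CPM in 4 libraries, fits of the groups compared alone or without the day 17 libraries, a replicate block, and each library left out in turn. Code was tested on simulated data.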

Additional observations from a re-analysis of the deposited data

Results flagged for a closer look

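These results are listed because the GW3965 response of a gene differed between stages by a test of that difference (edgeR interaction contrast over 2 libraries a group). Many genes did so. Over all tested genes 14.8% were called for day 16 minus ES, 18.2% for day 17 minus ES and 37% for day 17 minus day 16. A call alone therefore does not set these genes apart. The day 16 response exceeded the ES response by 1.02 ± 0.213 on the log2 scale for Meis2 (adjusted p = 0.00285) and by 0.44 ± 0.1 for Pbx3 (adjusted p = 0.00572, and 0.0542 without ES control replicate 1). The day 17 response exceeded the ES response by 0.53 ± 0.105 for Pbx2 (adjusted p = 0.00137) and by 0.63 ± 0.214 for Meis2 (adjusted p = 0.0446), a call lost in 10 of 15 alternatives: with the replicate block (0.0518), with limma-voom (0.229) and without any 1 of the 8 libraries (0.0536 to 0.193). The day 17 response minus that at day 16 was 0.63 ± 0.105 for Pbx2 (adjusted p = 9.3e-05) and -0.39 ± 0.105 for Meis2 (adjusted p = 0.0063).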

How the results depend on the processing

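Over 90 member results and 1152 alternatives, 1097 kept their side of the threshold, 46 lost a call, 9 gained one and 0 reversed a called direction. The number of called members went from 1 to 2 (LG268 against control) and from 1 to 2 (LG268 against GW3965) in a fit of the groups compared alone, the latter also with no filter and DESeq2. It went from 0 to 1 for GW3965 against control with no filter and DESeq2, from 2 to 0 for both ligands against control with limma-voom and in the fit alone, and from 2 to 1 for both ligands against GW3965 in the same settings. The number also fell for GW3965 at day 17 with no filter and in the fit alone, where edgeR no longer called Pbx4 (adjusted p = 0.0501 and 0.0921). For both ligands against LG268 it went from 1 to 0 with DESeq2 size factors and in the fit alone. With the replicate number as a block, which the labels do not say marks a shared culture, it went from 1 to 0 there and from 2 to 1 for the day 17 minus ES response (also 1 with limma-voom), and no other count of called members moved. Same-numbered libraries did not deviate together (36 pairs of groups, correlation -0.096 to 0.0691).

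With each library left out in turn the counts ran from 1 to 2 for both ligands against control, 0 to 2 against LG268 and 1 to 2 against GW3965. They ran from 2 to 4 for day 17 against day 16, 1 to 3 for GW3965 at day 16 and 1 to 2 at day 17 (3 with all libraries), 1 to 2 for the day 16 minus ES response and 1 to 1 for the day 17 minus ES response. The cause of these losses was not tested, apart from the fewer libraries.

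Counts over all tested genes varied more. Over the alternatives they ran from 42 to 843 for LG268 (146 in the main result), 28 to 369 for GW3965 (55), 427 to 2844 for both ligands (1939), 29 to 892 for LG268 against GW3965 (103), 56 to 2379 for both against LG268 (722), 111 to 3077 for both against GW3965 (1831) and 2 to 1461 for the interaction (23). The highest of the last 3 came without both-ligand replicate 2. They ran from 3589 to 6099 for GW3965 at day 16 (5446) and 1566 to 2939 for the day 16 minus ES response (2532). With DESeq2 size factors the split of higher and lower calls went from 280 and 442 to 359 and 351 for both against LG268, and from 632 and 1199 to 952 and 938 for both against GW3965. Depth limits Meis1 and Meis2 in ES cells, at 27 to 177 counts per library.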
